A study of Mus musculus with 289 samples.

Results

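The genes described here are 8 genes of apolipoproteins and lipid export, Apoe, Clu, Apod, Lpl, Abca1, Abcg1, Lrp1 and Lcat. They were chosen by name from the 18523 genes listed in all 5 count tables of the series, and all 8 are listed in each table. The libraries come from single cells sucked from the brains of transgenic mice that carry Cas9, and every group with a gRNA received a lentivirus made for astrocytes, labelled Mok-LV. The gRNA labels are control, Sox9, Trps1 and both targets together (called dual here), and cells labelled no gRNA come from mice labelled adult, with no statement of whether they received virus. In-slice controls are libraries labelled as holding no cell. Batch 1 had 31 no gRNA, 10 control gRNA (labelled day 8 to 16) and 4 dual gRNA cells (labelled day 17 to 20). Batch 2 had control gRNA cells of day 7 (n = 8) and day 21 (n = 7), dual gRNA cells of day 21 (n = 8) and 1 in-slice control. Batch 3 had 6 no gRNA cells, 4 in-slice controls and, at day 7, cells with the Sox9 gRNA (n = 21) or with both (n = 14). Batch 4 had values, at day 21, for cells with the control (n = 15), the Sox9 (n = 16) or both gRNAs (n = 13). It also had values for 15 cells with the Trps1 gRNA at day 7 and 2 in-slice controls, and none for its labelled Trps1 gRNA cells of day 21. Batch 5 had 23 no gRNA cells, 21 Sox9 and 30 Trps1 gRNA cells of day 21, and 5 in-slice controls. All groups with a gRNA, the control included, share Cas9, the virus and the injection.

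Astrocytes are the main source of lipoprotein particles in the brain. Apolipoprotein E (Apoe) and clusterin (Clu, also named apolipoprotein J) are secreted and take up cholesterol and phospholipid, which the ATP-driven transporters Abca1 and Abcg1 carry out of the cell. Lecithin-cholesterol acyltransferase (Lcat) turns cholesterol on the particle into cholesteryl ester, lipoprotein lipase (Lpl) splits the triglyceride of particles, and Lrp1 is an endocytic receptor that takes up particles carrying Apoe. Apolipoprotein D (Apod) is a lipocalin that binds small lipids. Microglia and macrophages also make Apoe, and Abca1 and Abcg1 are known targets of the liver X receptors. Sox9 is an HMG-box transcription factor and Trps1 a zinc-finger factor of the GATA family, so their letters were looked for upstream of the members.

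RefSeq (GRCm38.p6) gave windows for 5 of the 8 members, and none of the table's entries matched Clu, Lpl or Abcg1. The letters searched on both strands in the 250 bases before each start site were ACAATG and the longer AACAATGG for Sox factors, AGATAA and TGATAA for GATA factors, and AGGTCA and its direct repeat with 4 bases between, the liver X receptor element, for nuclear receptors. Of 32851 RefSeq windows of the same length, ACAATG was in 10.7%, AACAATGG, which contains it, in 0.901%, AGATAA in 9.99%, TGATAA in 7.94%, AGGTCA in 14% and the direct repeat in 0.0152%. Apoe and Lcat are shown because they alone of the 5 held a match, with the matched letters in capitals. The Apoe window shown is chr7:19699189-19699438, minus strand, with ACAATG on the gene's strand. RefSeq also gave Apoe start sites at 19698621 and 19698398, and the windows of these held no match. The Lcat window is chr8:105943403-105943652, minus strand, whose start site lies 20 bases from the GENCODE gene start, with ACAATG on the other strand (read here as CATTGT) and AGATAA on the gene's strand. A match describes the letters of the window only. Exact letters alone were searched, so a window without a match, that of Abca1 included, may still hold a variant of these elements.
Apoe: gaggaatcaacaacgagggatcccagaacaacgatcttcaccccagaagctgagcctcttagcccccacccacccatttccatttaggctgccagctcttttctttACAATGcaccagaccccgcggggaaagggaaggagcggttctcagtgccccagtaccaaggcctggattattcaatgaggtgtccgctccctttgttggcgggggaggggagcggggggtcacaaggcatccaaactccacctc
Lcat: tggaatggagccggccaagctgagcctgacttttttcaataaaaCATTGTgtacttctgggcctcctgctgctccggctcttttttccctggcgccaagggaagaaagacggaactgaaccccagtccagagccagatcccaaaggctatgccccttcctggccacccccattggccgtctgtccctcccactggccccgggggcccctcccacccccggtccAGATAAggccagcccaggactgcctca

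Astrocyte libraries held 15959 to 4656612 reads in genes (median 1094502), and in-slice controls 341394 to 2299609. Levels are pooled: the reads of all cells of a gRNA label, day and batch were summed and divided by the pool's reads in genes, in CPM (counts per 1000000). No label names an animal, so each pool is 1 sample, no test was made, and every difference has no replicate check. One ribosomal RNA gene took between 4.33% and 55.1% of a pool's reads, so CPM of other genes also moves with it. The 12 astrocyte markers all had reads in each astrocyte pool and summed to between 1811 and 18161 CPM there, against 67.7 to 2054 CPM in the in-slice pools. The 14 microglia and macrophage markers summed to between 276 and 351 CPM in the 3 no gRNA pools, between 6034 and 14062 CPM in the 13 pools with a gRNA, and between 3760 and 29906 CPM in the in-slice pools. Their part in the results below was not tested. Pooled Sox9 ran from 52.5 to 1860 CPM and Trps1 from 3.35 to 294 CPM in the astrocyte pools. In batch 3 Sox9 was at 382 CPM without a gRNA, 1303 CPM with the Sox9 gRNA and 1493 CPM with both. A small deletion at a cut site can leave transcript reads in place, so these reads do not check the gRNA labels.

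Apoe and Clu were the most abundant members by far, and the other 6 were low and patchy from cell to cell. Per kilobase of exon, the median pooled level over the 16 astrocyte pools was 4032 CPM for Apoe (1692 to 7575), 991.5 CPM for Clu (149 to 2811) and 71.2 CPM for Lcat (6.45 to 308). Lrp1 followed with 7.75 CPM per kilobase (0.721 to 22.9), Abca1 with 7.28 (0 to 21.0), Abcg1 with 3.62 (0 to 55.2), Apod with 2.187 (0 to 15.8) and Lpl with 0.313 (0 to 7.94). Apoe was above Clu on this scale in each of the 16 pools. From Lrp1 down to Lpl the ranges of neighbours overlap widely, so that part of the order is not separated beyond the spread between pools.

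Reads of the members were also found where no cell had been taken. Apoe had a read in 241 of 242 astrocytes (99.6%, exact 95% binomial interval 97.7 to 99.99%) and in 12 of 12 in-slice controls (73.5 to 100%). Clu had a read in 235 of 242 astrocytes (97.1%) and in 11 of 12 in-slice controls (91.7%). The intervals of astrocytes and in-slice controls overlapped for all 8 members. For Apoe, Lpl and Abcg1 the share in astrocytes was no higher than that in in-slice controls, so these shares do not set cells apart from background. For Apoe the share could not be higher, since all 12 in-slice controls had a read. The median library was at 6002 CPM of Apoe in astrocytes and 2166 CPM in in-slice controls. A level of at least 20 CPM separated the kinds of library better for some members. Clu reached it in 202 astrocytes (83.5%) and 4 in-slice controls (33.3%), Abca1 in 93 astrocytes (38.4%) and 1 in-slice control (8.33%), and Lcat in 70 astrocytes (28.9%) and 0 of 12 in-slice controls, which allows a share of up to 25%. Apoe reached it in 236 astrocytes and 10 in-slice controls, and Abcg1 in 58 astrocytes (24.0%) and 4 in-slice controls (33.3%). Median depth was close in both kinds of library, at 1094502 and 1002483 reads. Intervals here and below cover counting error only, and Smart-seq2 reads without molecular identifiers are not independent molecules.

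**Figure D1:**
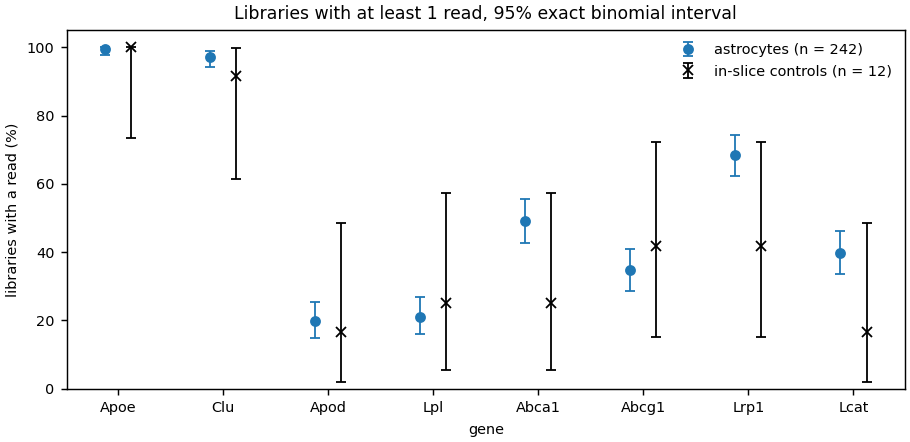
Share of libraries with at least 1 read of each gene (y axis, %) in 242 astrocytes (blue circles) and 12 in-slice controls (black crosses), with exact 95% binomial intervals as bars. Apoe and Clu are near 100% in both, and the intervals overlap for all 8 genes.

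Apoe (ENSMUSG00000002985, GRCm38 chr7:19696109-19699188, minus strand, protein coding), the main cholesterol carrier of the brain, passed 2-fold in 1 of the 13 comparisons, with log2 ratios from -0.98 to 1.11. Without the highest cell of each pool, 2-fold was also passed in batch 3 for Sox9 against no gRNA (1.16). The same held in batch 1 for control against no gRNA (-1.35) and in batch 2 for dual against control (1.18). The pools of batch 5 differed by 0.24 or less on the log2 scale. There the lowest, median and highest cell were at 591, 9805 and 24985 CPM without a gRNA, at 1608, 7213 and 19137 CPM with the Sox9 gRNA and at 11.1, 8552 and 39982 CPM with the Trps1 gRNA. The pools were at 9937, 9455 and 11199 CPM. The 3 groups overlapped almost entirely, and the log2 ratios of CPM + 5 against no gRNA were -0.07 for Sox9 and 0.17 for Trps1. In batch 4 the pools were at 8587 CPM for control (cells 26.5 to 31362, median 4401), 5360 CPM for Sox9 (13.6 to 25070, median 3123), 5750 CPM for dual (1101 to 13548, median 3722) and 9055 CPM for Trps1 of day 7 (0 to 26636, median 2572). The highest control cell held 41.0% of the control pool's Apoe reads, and without it that pool was at 5709 CPM. In batch 3 the no gRNA pool was at 5074 CPM, Sox9 at 9650 CPM and dual at 7772 CPM, with medians of 2680, 8475 and 7033 CPM. The cells ran from 877 to 7205, 3.33 to 28190 and 506 to 22701 CPM, so the no gRNA cells lay within the range of both others. Those differences, of 0.93 and 0.61 on the log2 scale, were smaller than the median ratio of all genes in the same comparisons, 1.69 and 1.75.

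The highest pooled Apoe was in the dual gRNA cells of batch 2. Their 8 cells ran from 6020 to 25393 CPM (median 15036), and the 7 control gRNA cells of the same day from 3074 to 22474 CPM (median 4755). The pools were at 16196 CPM (95% Poisson interval 16141 to 16251) and 8654 CPM (8607 to 8701), a log2 ratio of 0.90, and 1.18 without the highest cell of each pool. The groups overlapped over most of their range. Control gRNA cells of day 7 had a pool of 8841 CPM, beside 8654 CPM on day 21. In batch 1 the 4 dual gRNA cells were at 4403, 8315, 11918 and 5866 CPM, against control gRNA cells from 14.1 to 10707 CPM (median 1970). This was the comparison in which Apoe passed 2-fold, with a log2 ratio of 1.11, and it was 0.81 with TMM factors and 0.85 with totals that leave out the ribosomal RNA gene. The pools of batch 1 were at 7158 CPM for no gRNA, 3618 CPM for control and 7824 CPM for dual. The dual pool was thus close to the no gRNA pool, and the control pool was below both. The 31 no gRNA cells ran from 35.6 to 24675 CPM (median 4688), a range that holds all 4 dual cells.

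In-slice controls reached the Apoe levels of cells. The batch 2 library was at 8413 CPM, the 4 of batch 3 at 1513, 3408, 23183 and 646 CPM, the 2 of batch 4 at 17.1 and 2356 CPM, and the 5 of batch 5 at 4971, 8.79, 6842, 1976 and 233 CPM. All of these lie within the range of the astrocytes. The batch 3 library at 23183 CPM had a sum of microglia and macrophage markers of 76816 CPM and of astrocyte markers of 1607 CPM, and without it the in-slice pool of batch 3 was at 1632 CPM in place of 9356 CPM.

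**Figure D2:**
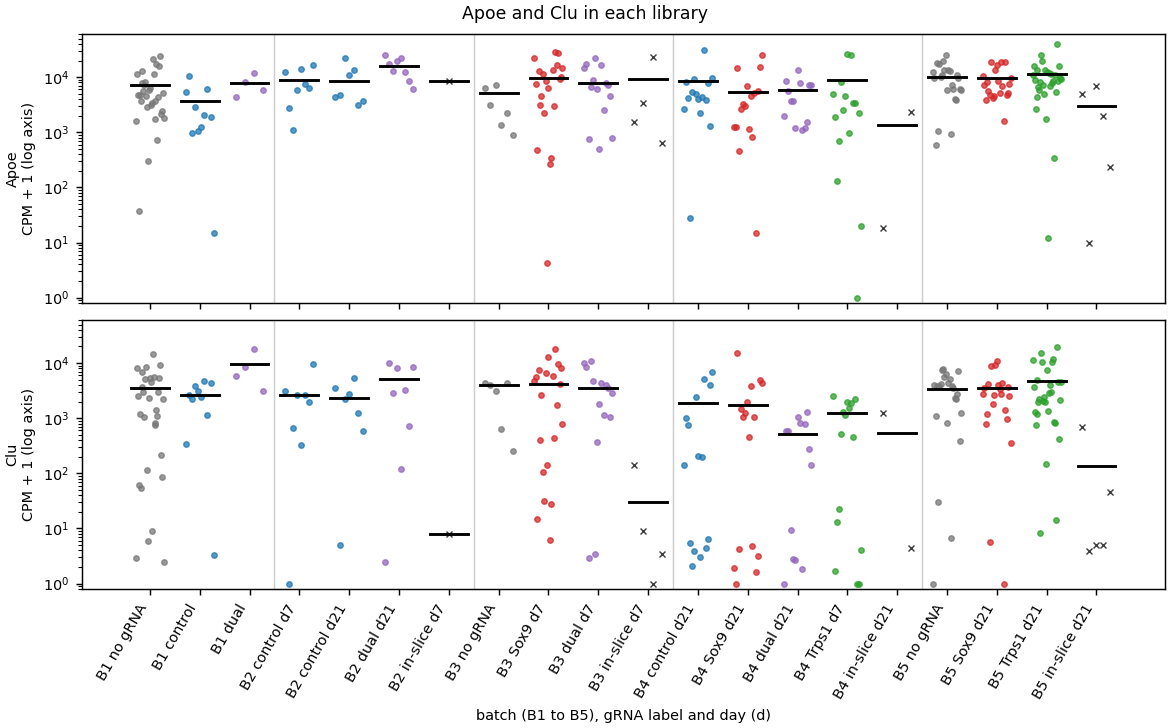
CPM + 1 (log axis) of Apoe and Clu in every library, by batch, gRNA label and day, with circles for astrocytes, crosses for in-slice controls and black bars for the pooled CPM. In-slice Apoe overlaps the cells, and in-slice Clu is mostly under 10 CPM.

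Clu (ENSMUSG00000022037, GRCm38 chr14:65968483-65981547, plus strand, protein coding), a secreted chaperone and apolipoprotein, gave opposite differences between dual and control gRNA cells in different batches. In batch 4 the pools were at 512 CPM for dual (501 to 523) and 1906 CPM for control (1886 to 1926), a log2 ratio of -1.89, and -1.62 without the highest cell of each. The dual cells ran from 0 to 1319 CPM with a median of 271 CPM, and the control cells from 1.12 to 6821 CPM with a median of 194.5 CPM. So the median cell was not lower, the difference lay in the upper cells, and with each cell counted once the log2 difference was -0.49. At least 20 CPM was reached by 8 of 13 dual and 9 of 15 control cells. The astrocyte markers of the same pools summed to 1811 CPM in dual and 7141 CPM in control cells, and their part in the difference was not tested. Sox9 gRNA cells of batch 4 had a pool of 1719 CPM (0 to 15461, median 1059), and Trps1 gRNA cells of day 7 a pool of 1225 CPM (0 to 2525, median 516).

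In batches 2 and 1 the dual gRNA pools had the higher Clu. The batch 2 pools were at 5187 CPM for dual (cells 1.44 to 10148, median 3087) and 2354 CPM for control of day 21 (4.08 to 5472, median 2243), a log2 ratio of 1.14, which was 0.29 with each cell counted once. The batch 1 dual cells were at 5857, 8600, 18353 and 3071 CPM, and the control cells of that batch ran from 2.35 to 4675 CPM (median 2547), a log2 ratio of 1.86. Of the 4 dual cells, 3 lay above all control cells and the fourth within their range. The 31 no gRNA cells of that batch ran from 1.52 to 14827 CPM (pool 3466 CPM), and only the dual cell at 18353 CPM lay above them. Astrocyte markers were also higher in both dual pools, at 13051 against 7669 CPM in batch 2 and 18161 against 8737 CPM in batch 1. Of the other comparisons among the 13 made, dual against Sox9 in batch 4 also passed 2-fold in Clu (log2 ratio -1.74). The batch 5 pools were at 3349, 3488 and 4642 CPM for no gRNA, Sox9 and Trps1, and the batch 3 pools at 3929, 4096 and 3474 CPM for no gRNA, Sox9 and dual.

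Clu was far lower in most in-slice controls than in cells. The batch 2 library was at 6.96 CPM and the batch 3 libraries were at 138.7, 7.96, 0 and 2.40 CPM. The batch 5 libraries were at 705, 2.93, 4.003, 4.04 and 45.0 CPM, and those of batch 4 at 1217 and 3.35 CPM. The library at 1217 CPM is the batch 4 in-slice control whose Apoe was 17.1 CPM, so the ratio of both genes was not the same in all in-slice controls. Over the astrocytes of a batch (45, 23, 41, 59 and 74 cells), Spearman correlation of Clu with the summed astrocyte markers was 0.57, 0.78, 0.86, 0.60 and 0.74, and with the microglia and macrophage markers between -0.34 and 0.02. For Apoe the values were 0.25 to 0.70 with astrocyte markers and -0.19 to 0.53 with microglia and macrophage markers. Cells of a batch share library preparation, and all genes of a library share its depth and its ribosomal RNA share.

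**Figure D3:**
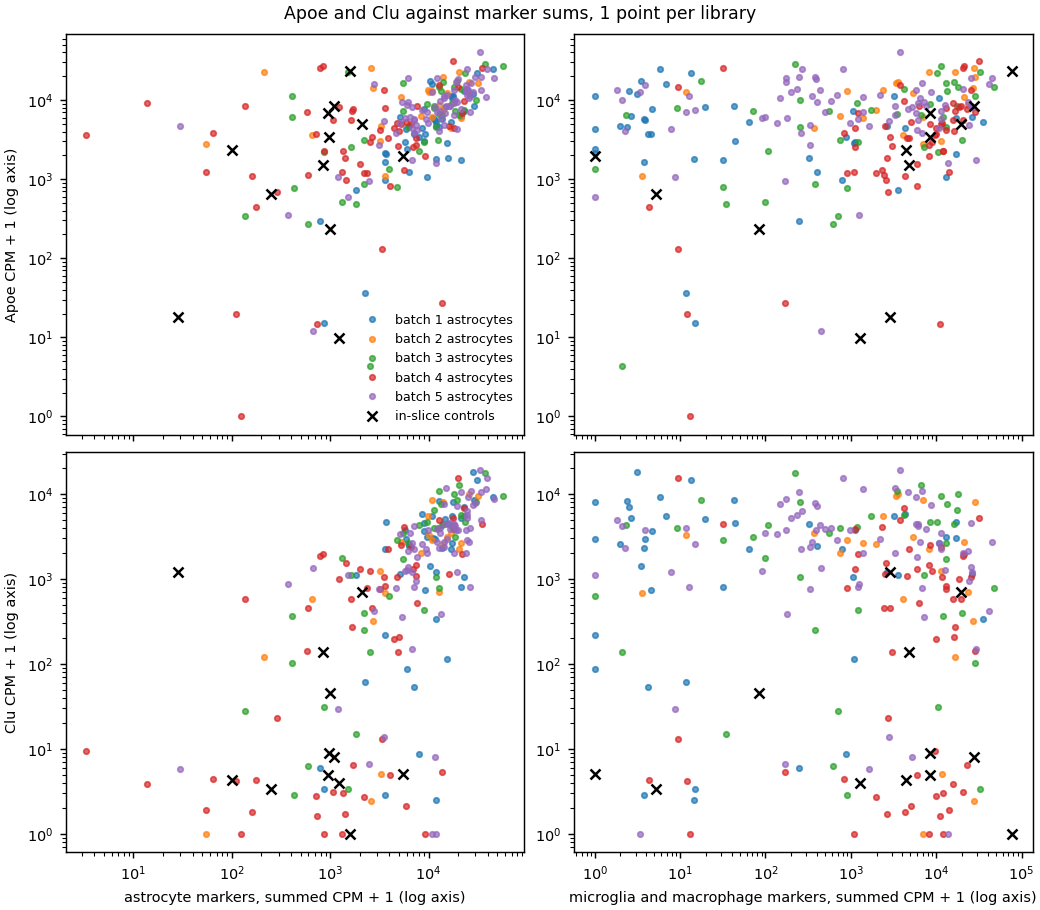
Apoe and Clu (y axes, CPM + 1) against the summed astrocyte markers and the summed microglia and macrophage markers (x axes, CPM + 1) on log axes, 1 point per library, coloured by batch, with crosses for the 12 in-slice controls. Clu falls off at low astrocyte sums, while Apoe is high in many libraries with low astrocyte sums, in-slice controls among them.

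By the same correlation, averaged over the 5 batches and searched over 2564 genes with a read in at least 30% of astrocytes of each batch, the genes most like Clu were Slc1a3 (0.70), Gja1 (0.65) and Atp1b2 (0.65). All of these are in the astrocyte marker list used above. Those most like Apoe were Cst3 (0.60), Tspan7 (0.51) and Sparcl1 (0.51), and those most like Lrp1 were Sfswap (0.40), Ash1l (0.35) and Apc (0.35). The other members had a read in under 50% of astrocytes of at least 1 batch and were not searched. Between members, the correlation of Apoe with Clu was 0.24 in batch 2 and 0.54 to 0.64 in the other batches.

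Apod (ENSMUSG00000022548, GRCm38 chr16:31296192-31314808, minus strand, protein coding) was read in few cells, 48 of 242 astrocytes and 2 of 12 in-slice controls. Its pools ran from 0 to 40.8 CPM. The highest was the dual gRNA pool of batch 4, where 6 of 13 cells were at 20 CPM or more and the highest cell was at 347 CPM. The Sox9 gRNA pool of that batch was at 20.4 CPM (6 of 16 cells with a read) and the control pool at 1.87 CPM (3 of 15 cells with a read). The log2 ratio against control was 2.74 for dual, and 1.88 for Sox9, which became -0.46 without the 10 Sox9 gRNA cells titled as series 21S2. Markers of pericytes, smooth muscle and fibroblasts summed to 42.7 CPM in dual, 266.7 CPM in Sox9 and 10.7 CPM in control cells, and the 8 endothelial markers to 104, 40.1 and 45.0 CPM. Over the 59 astrocytes of the batch the Spearman correlation of Apod was 0.42 with the first list and 0.25 with the second. In the 5 batches it was 0.00 to 0.51 with the first and 0.23 to 0.67 with the second. Their part was not tested. In batches 1, 2 and 3, 5 of the pools with a gRNA had no Apod read, among them the dual gRNA pools of all 3 batches. In batch 5 a single Sox9 gRNA cell at 699 CPM held 96.5% of that pool's Apod reads.

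Abca1 (ENSMUSG00000015243, GRCm38 chr4:53030787-53159895, minus strand, protein coding), which loads lipid onto newly secreted Apoe, was highest in Sox9 gRNA pools of batches 3 and 5 among the astrocyte pools of those batches. In batch 5 the pool was at 218 CPM with the Sox9 gRNA (211 to 225), 88.7 CPM without a gRNA (84.4 to 93.2) and 44.6 CPM with the Trps1 gRNA (42.1 to 47.3). Reads were found in 12 of 21, 14 of 23 and 10 of 30 cells, and the medians were 29.1, 36.4 and 0 CPM. The share of cells with a read and the median were thus not higher with the Sox9 gRNA, and its higher pool came from cells of up to 738 CPM, against 397.5 CPM at most without a gRNA. The log2 ratio was 1.25 for Sox9 against no gRNA, which was 0.51 with each cell counted once, and -2.17 for Trps1 against Sox9. In-slice controls of batch 5 held 1 read of Abca1 in 5 libraries.

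In batch 3 no Abca1 read was found in the 6 no gRNA cells, a pool whose 3 counts limit is 0.910 CPM. The Sox9 gRNA pool was at 211 CPM, 232 times that limit, with a read in 14 of 21 cells. The dual gRNA pool was at 154 CPM, 169 times that limit, with a read in 9 of 14 cells. The limit covers counting error only and not the spread between cells. The median log2 ratio of all genes was 1.69 for Sox9 and 1.75 for dual against no gRNA. The no gRNA cells held 1540474, 1249201, 378887, 94129, 19048 and 15959 reads, so 3 were under 100000 reads and 2 were above the median of all astrocytes. After thinning every cell to 100000 reads the gene was found in 0 of 3 no gRNA, 13 of 21 Sox9 gRNA and 8 of 14 dual gRNA cells. In batches 1 and 5 the no gRNA pools did hold Abca1, at 162 and 88.7 CPM. One batch 3 in-slice control was at 934 CPM, the same library that had the highest Apoe, and the other 3 were at 0 to 2.52 CPM.

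The remaining Abca1 pools differed less or rest on few cells. In batch 2, 7 of 8 control gRNA cells of day 7 had a read (pool 215 CPM, median 223 CPM), 2 of 7 of day 21 (119 CPM, median 0) and 5 of 8 dual gRNA cells (109 CPM, median 29.3 CPM). The day 7 and day 21 control pools differed by -0.82 on the log2 scale, and by -1.77 without the highest cell of each. In batch 4 the pools were at 26.9 CPM for control, 38.9 CPM for Sox9, 14.5 CPM for dual and 37.9 CPM for Trps1 of day 7, where 11 of 15 cells had a read. In batch 1 the pools were at 162 CPM for no gRNA, 62.1 CPM for control and 0.184 CPM for dual gRNA cells. That last value is 1 read in 1 of 4 cells (95% interval 0.00465 to 1.02 CPM), and 1 control cell held 92.3% of the control pool's reads.

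Abcg1 (ENSMUSG00000024030, GRCm38 chr17:31057675-31117988, plus strand, protein coding), which passes cholesterol to particles already loaded with lipid, had higher pools with a Trps1 or Sox9 gRNA than without a gRNA in batches 3 and 5. In batch 5 the pools were at 127 CPM for Trps1 (14 of 30 cells with a read, highest cell 1051 CPM), 49.3 CPM for Sox9 (8 of 21, 287 CPM) and 18.96 CPM for no gRNA (8 of 23, 151 CPM). The log2 ratios against no gRNA were 2.46 and 1.18, and the Sox9 value was 0.52 without the 11 no gRNA cells titled AG. In batch 3 the Sox9 gRNA pool was at 220 CPM (15 of 21 cells, median 42.6 CPM), the dual gRNA pool at 32.4 CPM (7 of 14, median 0.249 CPM) and the no gRNA pool at 3.94 CPM (2 of 6). Log2 ratios were 4.65 and 2.06 against no gRNA and -2.59 for dual against Sox9. After thinning, 12 of 21, 5 of 14 and 1 of 3 cells had a read. Batch 1 did not show higher pools with a gRNA. Its pools were at 10.4 CPM for no gRNA (2 of 31 cells, 1 of which held 99.7% of the reads), 1.72 CPM for control (1 of 10) and 0 CPM for dual (0 of 4).

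In batches 3 and 5 the pools with a gRNA were also the ones with more microglia and macrophage markers. These summed to 10966, 8171 and 276 CPM in the Sox9, Trps1 and no gRNA pools of batch 5 and to 10537, 7194 and 294 CPM in the Sox9, dual and no gRNA pools of batch 3. In batch 1, where Abcg1 was not higher with a gRNA, they summed to 11302, 6034 and 351 CPM in the control, dual and no gRNA pools. Of the 14 markers, 5 (Cx3cr1, Tmem119, C1qb, C1qc and Lyz2) were at 0 in the batch 3 no gRNA pool. In-slice controls also held Abcg1, at 218.5, 1.99, 2185 and 0 CPM in batch 3 and 368, 583, 0, 0 and 0 CPM in batch 5. The in-slice pools were at 827 CPM in batch 3, above each astrocyte pool of that batch, 113.5 CPM in batch 5 and 0 CPM in batches 2 and 4. Without its highest library the batch 3 in-slice pool was at 67.8 CPM. Over the astrocytes of a batch, the Spearman correlation of Abcg1 was 0.02 to 0.56 with the microglia and macrophage markers. With the astrocyte markers it was -0.54 to -0.01. The part of these lists in the differences was not tested. In batch 4 the Sox9 gRNA pool was at 403 CPM against 20.2 CPM for control, but 2 of 16 cells had a read, 1 of them at 4354 CPM held 99.99% of the pool's reads, and the pool was at 0.0630 CPM without it. The log2 ratio of 4.02 then became -1.61.

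Lcat (ENSMUSG00000035237, GRCm38 chr8:105939551-105943382, minus strand, protein coding), the enzyme that esterifies particle cholesterol, stayed under 1 CPM in each in-slice control and reached 20 CPM in 70 astrocytes. Its antisense neighbour Gm16156 overlaps it, and no source used here says whether counting used strand. In batch 5, 18 of 23 no gRNA cells had a read (median 398 CPM, highest 1202 CPM), 7 of 21 Sox9 gRNA cells (median 0, highest 716.5 CPM) and 16 of 30 Trps1 gRNA cells (median 1.13 CPM, highest 1160 CPM). The pools were at 413 CPM (403.5 to 422.5), 119 CPM (114 to 124) and 195 CPM (189.5 to 200.2), and the 5 in-slice controls had none. The no gRNA cells were higher by pool, median and share of cells, and the 3 groups still overlapped. The log2 ratios against no gRNA were -1.75 for Sox9 and -1.06 for Trps1, the latter between -0.90 and -0.96 without series 21T3, 21T or AG. Thinned to 100000 reads, Lcat was found in 17 of 23 no gRNA, 6 of 21 Sox9 and 12 of 30 Trps1 gRNA cells.

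No other batch held the same comparison, since batch 4 had no cells without a gRNA and the Sox9 gRNA cells of batch 3 were of day 7. In both, the Lcat pool with the Sox9 gRNA was above that of its reference. In batch 4 the Sox9 gRNA pool was at 130 CPM (6 of 16 cells with a read), the control pool at 29.2 CPM (3 of 15), the dual pool at 8.66 CPM (3 of 13) and the Trps1 pool of day 7 at 14.9 CPM (5 of 15). The control value came to 96.8% from 1 cell. In batch 3 the Sox9 gRNA pool was at 150 CPM (8 of 21), the dual pool at 193 CPM (6 of 14) and the no gRNA pool at 72.2 CPM (2 of 6). The log2 ratios were 1.002 and 1.36, under the medians of all genes, 1.69 and 1.75. The Lcat ratios became -0.81 and -0.66 without the cells titled 7S and 7ST, and 0.21 and 0.63 with TMM factors. In batch 2 Lcat was in 6 of 8 control gRNA cells of day 7 (322 CPM, median 241.5 CPM), 2 of 7 of day 21 (52.4 CPM, median 0) and 2 of 8 dual gRNA cells (28.6 CPM, median 0). The day 21 control pool was lower than that of day 7 by a log2 ratio of -2.51, and -5.38 without the highest cell of each. In batch 1, 10 of 31 no gRNA cells (56.7 CPM), 1 of 10 control cells (37.4 CPM) and 1 of 4 dual gRNA cells (249.4 CPM) had a read.

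Lpl (ENSMUSG00000015568, GRCm38 chr8:68880491-68907448, plus strand, protein coding), the lipase of triglyceride-rich particles, was read in 51 of 242 astrocytes and 3 of 12 in-slice controls. At least 20 CPM was reached by 19 astrocytes, at most 4 in any pool. The Sox9 gRNA pool of batch 3 was at 33.8 CPM (8 of 21 cells with a read), against 3.32 CPM for dual (6 of 14) and no read in the 6 no gRNA cells. The Sox9 value was 37.2 times the 3 counts limit of the no gRNA pool, which covers counting error only. Without the 13 cells titled 7S the log2 ratio of Sox9 against no gRNA was 0.92 in place of 2.96. The control gRNA pool of batch 1, at 83.2 CPM, was 1 cell at 1003 CPM and 9 cells with none.

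Lrp1 (ENSMUSG00000040249, GRCm38 chr10:127538161-127621148, minus strand, protein coding), the receptor of the group, was read in 166 of 242 astrocytes and 5 of 12 in-slice controls. The antisense gene Gm16217 overlaps it. In batch 4 it was highest with the Sox9 gRNA, at 219 CPM (13 of 16 cells with a read, median 36.8 CPM, highest 907 CPM), against 70.7 CPM for control (7 of 15, median 0, highest 408 CPM), 35.4 CPM for dual (8 of 13, median 5.83 CPM, highest 183 CPM) and 12.8 CPM for Trps1 of day 7 (8 of 15, median 0.397 CPM). The Sox9 gRNA cells were higher by pool, median and share, and the groups overlapped. The log2 ratio was 1.57 for Sox9 against control and -2.47 for dual against Sox9, and without the highest cells 1.77 and -2.44. The 9 markers of pericytes, smooth muscle and fibroblasts summed to 266.7 CPM in the Sox9 pool, 10.7 CPM in control and 42.7 CPM in dual. Over the 59 astrocytes of the batch Lrp1 had a Spearman correlation of 0.44 with them, and over the 5 batches it ran from -0.03 to 0.50. Erythroid markers summed to 9716 CPM in the same Sox9 pool and 42.1 CPM in the control pool, and their correlation with Lrp1 was 0.15. The part of either list was not tested.

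In batch 5 the pooled Lrp1 was close, at 217 CPM for no gRNA, 239 CPM for Sox9 and 213 CPM for Trps1, but the median cells were at 153, 58.9 and 25.6 CPM and a read was found in 20 of 23, 14 of 21 and 22 of 30 cells. The median was thus lower in both groups with a gRNA while the pooled level was not. In batch 3 the no gRNA pool was at 406 CPM, from 4 of 6 cells, against 136 CPM for Sox9 and 139 CPM for dual, log2 ratios of -1.55 and -1.52 where the median of all genes was 1.69 and 1.75. In batch 2 the pools were at 106.5, 89.5 and 57.6 CPM for control of day 7, control of day 21 and dual, and in batch 1 at 166, 276 and 25.5 CPM for no gRNA, control and dual. The dual cells of batch 1 were at 0, 1.79, 0 and 88.3 CPM.

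**Figure D4:**
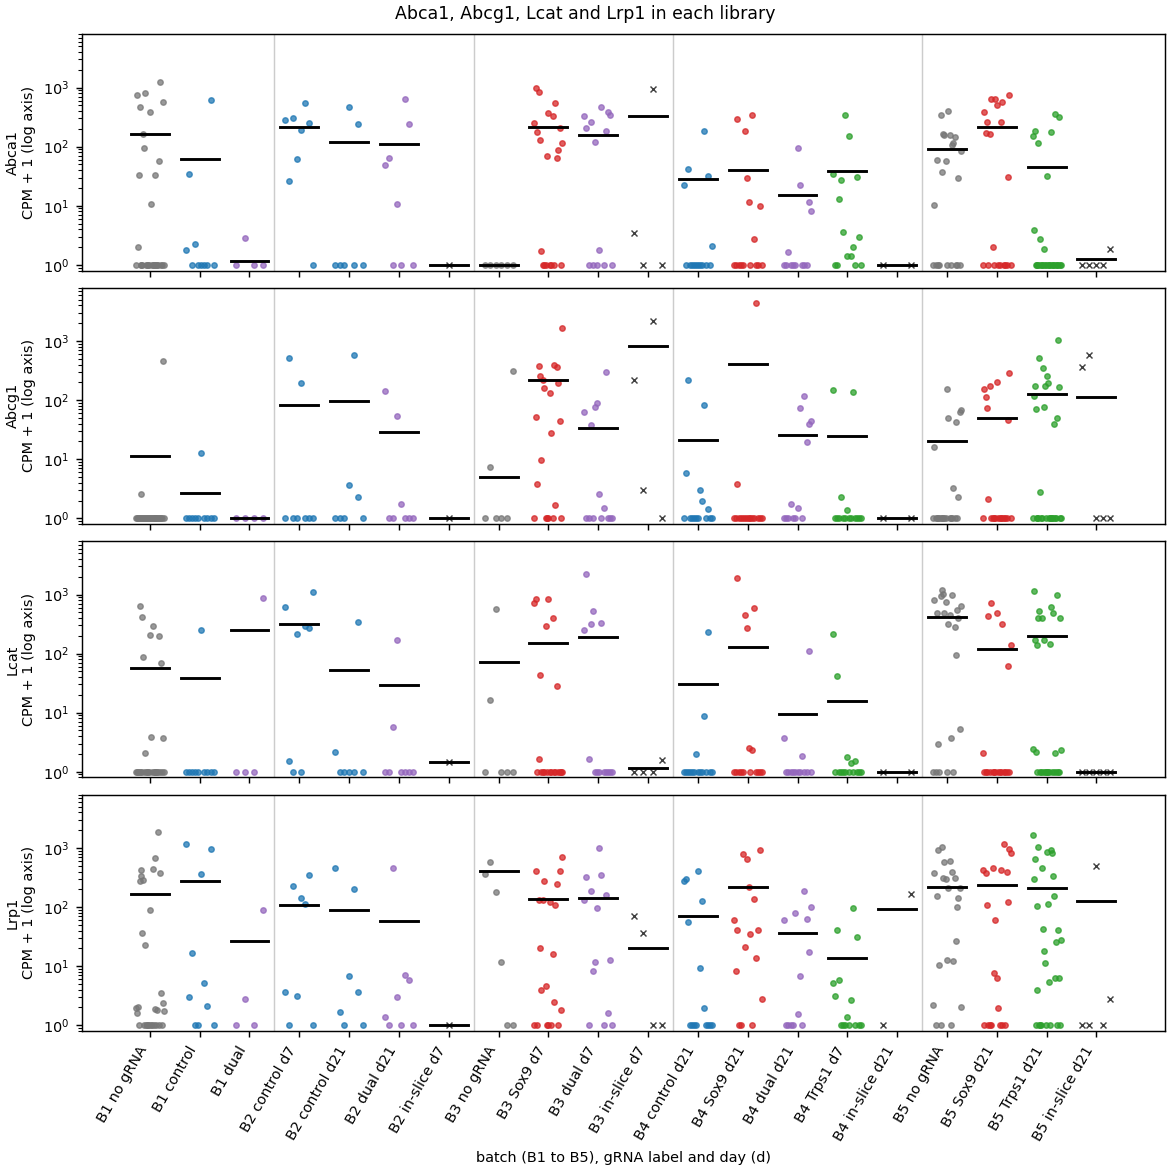
CPM + 1 (log axis) of Abca1, Abcg1, Lcat and Lrp1 in every library, by batch, gRNA label and day, with circles for astrocytes, crosses for in-slice controls and black bars for the pooled CPM. Cells without a read lie at 1, and no in-slice control is above 1 CPM of Lcat.

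For counts of members, a gene was compared where the higher pool had at least 20 CPM, and it passed 2-fold at a log2 ratio of CPM + 5 of 1 or more either way. Single cells vary so much that many genes pass 2-fold between any 2 pools, and the share of all compared genes that did so is given beside each count. In batch 4, Sox9 against control gRNA, 4 of 8 members were higher (Apod, Abcg1, Lrp1 and Lcat), beside 26.1% of 7015 genes, and 0 were lower, beside 39.7%. The median of the members was 1.01 and that of all genes -0.46. With TMM factors the share of 2-fold genes that were higher went from 39.7% to 55.7% and the median of all genes to 0.25. These factors move the ratios of members as well. Medians of members, here and below, are without them and are to be read beside the unscaled median of all genes. For dual against control, 1 of 8 members was higher (Apod), beside 19.9% of genes, and 3 were lower (Clu, Lpl and Lcat), beside 38.8%. That is near the background in both directions, the medians were -0.81 and -0.49, and with TMM factors the higher share went from 34.0% to 46.7% and the median of all genes to -0.02. For dual against Sox9, 0 of 7 members were higher, beside 31.2%, and 5 were lower, beside 34.7%, with medians of -1.74 and -0.12. Of those 5, Abcg1 had the single cell described above, and the others were Clu, Abca1, Lrp1 and Lcat.

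Among the 47 other genes of the pathway, 25 were compared in batch 4 for Sox9 against control, with 5 higher and 13 lower (median -1.15), where the shares of all genes were 26.1% and 39.7%. The 3 named by size of ratio were Angptl4, an inhibitor of Lpl, at 0.0572 against 148.5 CPM, Npc1, which moves cholesterol out of lysosomes, at 0.457 against 62.8 CPM, and Stard3, a cholesterol transfer protein of late endosomes, at 41.1 against 1.81 CPM. For dual against control 7 of 27 were higher and 14 lower (median -1.04), beside 19.9% and 38.8% of all genes, and Angptl4 was at 0, Stard3 at 128.5 CPM (4 of 13 cells) and Cyp27a1, a sterol hydroxylase, at 0 against 77.4 CPM (3 of 15 cells). For dual against Sox9 10 of 21 were higher and 6 lower, beside 31.2% and 34.7%, among them Npc2, the partner of Npc1, at 1029 against 158 CPM, Mylip, a ubiquitin ligase induced by liver X receptors, at 40.9 against 0.0572 CPM, and Srebf2, a regulator of cholesterol synthesis and uptake, at 19.5 against 117 CPM. Angptl4 and Npc1 rest on 4 and 8 of 15 control cells with a read, and Stard3 in the Sox9 pool on 2 of 16.

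In batch 2, 1 of 6 members was higher with dual than with control gRNA (Clu), beside 31.6% of 6792 genes, and 1 was lower (Abcg1), beside 42.6%. The Abcg1 ratio of -1.65 became 1.38 without the highest cell of each pool. Of the other pathway genes 9 of 25 were higher and 12 lower. Nr1h2, which encodes liver X receptor beta, was at 194 CPM in dual (4 of 8 cells) and 1.67 CPM in control gRNA cells (1 of 7). Cyp46a1, which turns cholesterol into a form that leaves the brain, was at 439 CPM in dual (4 of 8 cells) and had no read in control, and Lmf1, a maturation factor of lipases, had none in dual and was at 176 CPM in control (3 of 7 cells). For control of day 21 against day 7, 0 of 6 members were higher, beside 32.1% of 7477 genes, and 1 was lower (Lcat), beside 37.5%. Srebf1, a regulator of fatty acid synthesis, was at 4.02 CPM on day 21 and 83.4 CPM on day 7, among 10 pathway genes higher and 7 lower of 24. Nr1h2 was at 59.95 CPM on day 7, in 5 of 8 cells, and Lmf1 at 0.0550 CPM, in 1 of 8.

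In batch 3 most genes were higher in the pools with a gRNA than in the pool of 6 cells without. For Sox9 against no gRNA 4 of 7 members were higher (Lpl, Abca1, Abcg1 and Lcat), beside 61.8% of 8131 genes, and 1 lower (Lrp1), beside 15.2%. For dual against no gRNA 3 of 6 were higher (Abca1, Abcg1 and Lcat), beside 61.6% of 7813 genes, and 1 lower (Lrp1), beside 17.9%. The member medians of 1.002 and 0.99 were under the medians of all genes. With TMM factors the share of 2-fold genes that were higher went from 80.3% to 64.6% for Sox9 and from 77.5% to 64.1% for dual, and the medians of all genes to 0.78 and 0.90. The member medians of 1.002 and 0.99 are without these factors, so they are not to be set beside 0.78 and 0.90. For dual against Sox9, 0 of 7 were higher, beside 22.8% of 8873 genes, and 2 were lower (Lpl and Abcg1), beside 25.2%. Other pathway genes were higher in 19 of 28, 16 of 28 and 6 of 30 cases and lower in 7, 4 and 4. Trem2, a microglial receptor that binds Apoe and Clu, was at 442 CPM with the Sox9 gRNA (17 of 21 cells), 349 CPM with dual (11 of 14) and without a read in the no gRNA cells. Npc2 was at 612, 419 and 15.2 CPM in the same pools. Lrp8, a receptor of reelin and Apoe, was at 90 CPM with dual (3 of 14 cells), 16.01 CPM with Sox9 and 2.123 CPM without a gRNA. The transporters Abca2 and Abca7 were at 145 and 20.3 CPM with dual against 15.3 and 1.80 CPM with Sox9.

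In batch 5, where each pool had at least 21 cells, Sox9 against no gRNA gave 2 of 7 members higher (Abca1 and Abcg1), beside 24.9% of 8140 genes, and 1 lower (Lcat), beside 18.3%. For Trps1 against no gRNA 1 of 6 was higher (Abcg1), beside 31.4% of 8500 genes, and 1 lower (Lcat), beside 12.5%. For Trps1 against Sox9 1 of 7 was higher (Abcg1), beside 27.3% of 8648 genes, and 1 lower (Abca1), beside 15%. With 6 or 7 members compared, these counts are near the background. Both Trps1 comparisons moved with scaling, from 71.5% to 54.0% and from 64.6% to 51.1% of 2-fold genes higher with TMM factors, and to 52.1% and 52.4% without the ribosomal RNA gene in totals. The medians of all genes, 0.47 and 0.30, were 0.11 and 0.02 with TMM factors. Of other pathway genes 7 of 29, 9 of 29 and 4 of 31 were higher and 5, 5 and 6 lower. Trem2 was at 386 CPM with Sox9 (15 of 21 cells), 215 CPM with Trps1 (13 of 30) and 19.1 CPM without a gRNA (3 of 23), a difference in the direction of the microglia and macrophage markers above. Angptl4 was at 61.9 CPM with Sox9, 58.1 CPM without a gRNA and 3.70 CPM with Trps1. Among the others of largest ratio, Abca2 was at 14.7 CPM with Trps1 and 113 CPM with Sox9, Cyp27a1 at 5.37 CPM with Trps1 and 68.8 CPM without a gRNA, and Rxrb, a partner of the liver X receptors, at 0.585 CPM with Sox9 and 42.5 CPM without a gRNA.

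In batch 1, control against no gRNA gave 1 of 6 members higher (Lpl, from 1 cell), beside 40.2% of 8166 genes, and 1 lower (Abca1), beside 27.1%. The share of 2-fold genes that were higher went from 59.8% to 42.0% with TMM factors and 48.8% without the ribosomal RNA gene, and the median of all genes from 0.44 to -0.36 and -0.08. For dual against control, 3 of 6 were higher (Apoe, Clu and Lcat, the last from 1 cell), beside 28.9% of 7376 genes, and 3 lower (Lpl, from 1 control cell, Abca1 and Lrp1), beside 55.5%, with medians of -1.04 for members and -2.28 for all genes. The dual pool had 4 cells, all with later day labels than the control cells, so gRNA and day label cannot be told apart. Other pathway genes were higher in 9 of 24 and 5 of 22 cases and lower in 7 and 13, and Plin2, a coat protein of lipid droplets, was at 66.7 CPM with control gRNA and 1.48 CPM without. Against no gRNA, control cells also had less Rxrb (0 against 35.9 CPM) and Lrp8 (0.995 against 32.6 CPM), and against control the dual cells had less Nr1h2 (0 against 208 CPM), Npc1 (0.367 against 204 CPM) and Sorl1, a sorting receptor that binds Apoe (1.29 against 112 CPM).

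**Figure D5:**
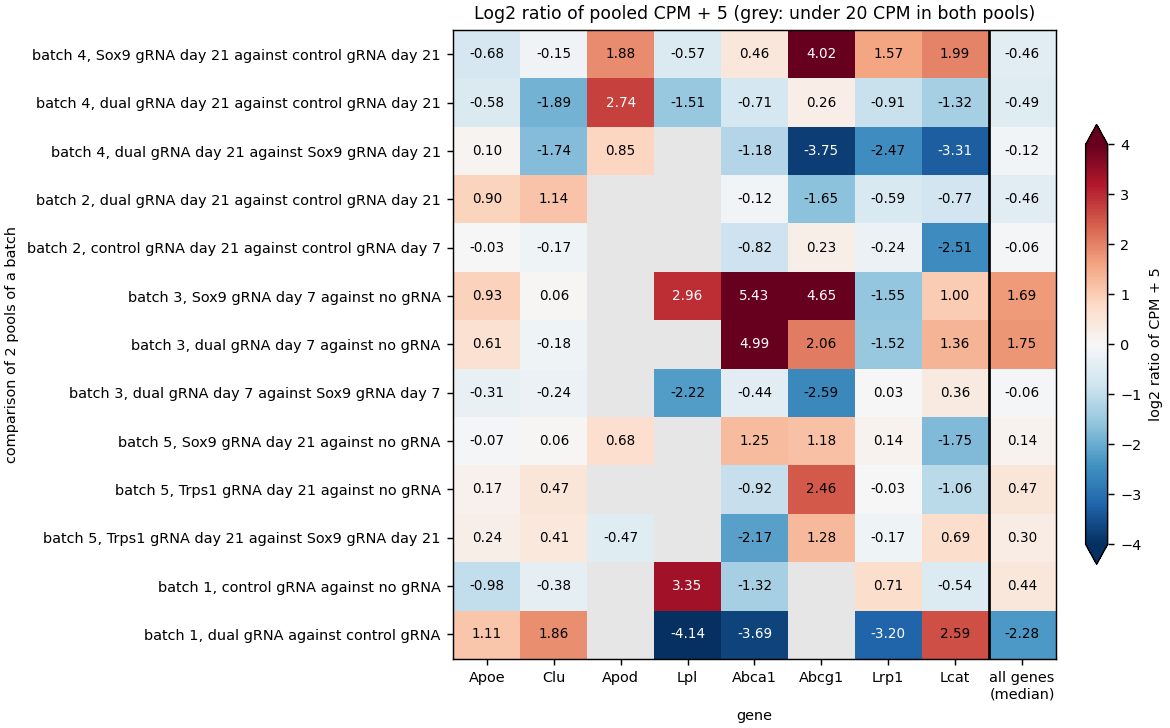
Log2 ratio of pooled CPM + 5 for each member (columns) in the 13 comparisons of pools of a batch, with the median of all compared genes in the last column, red for higher and blue for lower, and grey where both pools were under 20 CPM. With all cells kept, Apoe is between -0.98 and 1.11, and Clu reverses between dual and control gRNA of batches 4 and 2.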

How the data were processed

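Smart-seq2 libraries of 242 astrocytes and 12 in-slice controls were analysed. The other 35 labelled samples, all of batch 4, matched no column of counts and were not analysed here. All Trps1 gRNA cells of day 21 in that batch are among them. Values were found for 15 of 31 labelled Trps1 gRNA cells of day 7. At day 21 they were found for 16 of 20 Sox9, 13 of 14 dual and 15 of 17 control gRNA cells. The values are raw counts of reads per gene, which the authors deposited as a table for each batch, and no columns are identical. Per the submitters' processing notes, the tools include RSEM 1.3.0 and STAR 2.6.0a and the builds mm10 and GRCm38. Their roles, and the use of strand, are not given in the sources used here. Lines that name no gene stayed out of totals (75.6% of counts in batch 1, 22.3% in batch 2, under 1% elsewhere). Counts were summed per gRNA label, day and batch. In batch 1 the day labels rise from cell to cell, from 8 to 16 over control and from 17 to 20 over dual gRNA cells. They did not split the pools, and gRNA and day label cannot be told apart there. CPM has exact Poisson and shares exact binomial (Clopper-Pearson) intervals at 95%, a pool without reads has a limit of 3 counts, and ratios are log2 of CPM + 5, which draws low genes towards 0. No test was run, since no label names an animal. The procedure was tested on simulated data with counting error only. Those data held no variation between cells, so that test does not cover the spread of real cells. Markers are those of the listed cell types, and coordinates are GENCODE M21 (GRCm38). Of the 47 other pathway genes, at most 3 per comparison are named, those of largest ratio past 2-fold with and without the highest cell of each pool. Some of the genes so chosen are not reported here. The members, lists and comparisons were chosen with earlier results of these data known. Alternatives were a pseudocount of 1, minimums of 5 and 0 CPM, the highest cell left out, TMM factors (edgeR 4.0.16), each cell counted once, cells under 100000 reads left out, totals without mitochondrial genes, title series left out and, added after seeing the data, totals without the ribosomal RNA gene CT010467.1.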

Additional observations from a re-analysis of the deposited data

Results flagged for a closer look

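Clu stood apart between batches: dual against control gRNA of day 21 gave a log2 ratio of -1.89 in batch 4 and 1.14 in batch 2, in opposite directions. The difference between the batches was not tested.

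In 54 sets of libraries (a member in a pool of 4 to 10 libraries), 28 had a highest or lowest library far from the rest for the range of its set. Many of these sets hold reads in a single library, which stands apart under this rule whatever its level. The count of 28 can therefore not be set against a chance rate. Among control gRNA cells of batch 1 the lowest library was at 14.1 CPM for Apoe and 2.35 CPM for Clu, where the next were at 975 and 341 CPM. The highest there was at 1003 CPM for Lpl, 613.5 CPM for Abca1, 11.6 CPM for Abcg1 and 252 CPM for Lcat. Among dual gRNA cells of batch 1 the highest was at 1.79 CPM for Abca1, 88.3 CPM for Lrp1 and 868.5 CPM for Lcat.

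In batch 2, 1 control gRNA cell of day 7 was at 0 CPM for Clu, where the next was at 323 CPM, and the highest was at 56.5 CPM for Apod and 3.90 CPM for Lpl. Of day 21, the lowest control gRNA cell was at 4.08 CPM for Clu, and the highest was at 2.72 CPM for Lpl, 574 CPM for Abcg1 and 348 CPM for Lcat. The highest dual gRNA cell was at 0.731 CPM for Lpl, 464 CPM for Lrp1 and 171 CPM for Lcat. In batch 3 the highest no gRNA cell was at 313 CPM for Abcg1 and 578 CPM for Lcat. The first of these is the shallowest library of the series, with 15959 reads.

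Among in-slice controls of batch 3 the highest was at 96.0 CPM for Apod, 1.20 CPM for Lpl, 934 CPM for Abca1 and 0.600 CPM for Lcat. Among those of batch 5 it was at 22.5 CPM for Apod, 0.865 CPM for Abca1 and 493 CPM for Lrp1.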

How the results depend on the processing

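Of 42 ratios of a member past 2-fold, 42 kept their direction and stayed past 2-fold with a pseudocount of 1 CPM, a minimum of 5 CPM, no minimum, or totals without mitochondrial genes, 41 without cells under 100000 reads, 39 with TMM factors, 39 without the ribosomal RNA gene, 34 without the highest cell of each pool and 20 with each cell counted once. Without the highest cell, log2 ratios reversed for Abcg1 in batch 4 (Sox9 against control -1.61, dual against Sox9 2.188) and batch 2 (dual against control 1.38), and for Lpl in batch 1 (control against no gRNA -0.091). With each cell counted once, Abcg1 reversed in batch 4 (-0.11 and 0.70). Without series 21S2, Sox9 against control reversed for Apod (-0.46) and Abcg1 (-2.29) and dual against Sox9 for Abcg1 (2.55); without 7S or 7ST, Lcat reversed against no gRNA in batch 3 (-0.81 and -0.66). The count of members past 2-fold was within 1.5 times of the value reported in 117 of 139 cases. With each cell counted once it was 2 (Sox9 against control) and 1 (dual against control) in batch 4; 1 (dual against control) and 2 (day 21 against day 7) in batch 2; 3, 1 and 1 in batch 3; 1 in batch 5 for Sox9 against no gRNA and for Trps1 against Sox9; and 1 in batch 1 for control against no gRNA. Without the highest cell it was 2 (batch 4, dual against control), 3 (batch 2, day 21 against day 7), 1 (batch 3, dual against Sox9) and 3 (batch 1, dual against control). For batch 2 day 21 against day 7 it was 2 with a minimum of 5 CPM, with none, or with TMM factors. For batch 1 control against no gRNA it was 4 with a minimum of 5 CPM, with none, or without the ribosomal RNA gene, and 5 with TMM factors; for batch 5 Trps1 against no gRNA it was 4 without that gene. The cause was not tested. No paired analysis was possible because each pool is 1 sample and no test was made. Values of Apod, Lpl, Abca1, Abcg1 and Lcat rest on few cells of a pool, and the depth of a cell limits where a read is found.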
